A study of Mus musculus with 16 samples.

Results

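The carriers of glucose, lactate and amino acids belong to the solute carrier (SLC) gene families. They were taken by symbol, as every gene named Slc with the family number 1, 2, 3, 5, 6, 7, 16, 36, 38 or 43 and a member number, which gave 50 of the 15876 genes measured. The 50 genes carry 49 symbols, because Slc38a9 stands on 2 rows with different Ensembl identifiers. Family 16 gave 10 genes, families 7 and 38 gave 8 each, families 2 and 6 gave 5 each, family 1 gave 4, families 5 and 43 gave 3 each and families 3 and 36 gave 2 each. The pattern also takes in genes with other cargo, among them Slc6a6 (taurine), Slc6a8 (creatine), Slc5a3 (inositol) and Slc43a3 (purine bases).

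Total RNA was sequenced from small regions of the head of CD1 mouse embryos, an outbred stock, with no genetic change or treatment named in the labels, in 16 libraries. At embryonic day (E) 8.5 there were 1 library of mesoderm and 3 of neural epithelium (caudal brain, floor plate, non-floor plate). At E9.5 there were 3 libraries of mesenchyme and arch (cranial mesenchyme, mandibular arch, maxillary arch) and 1 of epidermal ectoderm. At E10.5 there were 3 libraries of facial tissue (lateral nasal prominence, mandibular arch, maxillary arch), 1 labelled medial nasal prominence, 1 of olfactory pit and 3 of neural epithelium (lateral prominence, central, dorsal control). Each region and stage has 1 library, the labels do not say how many embryos each holds, and the regions of a tissue stand in for replicates. Every p-value below therefore rests on the spread between regions and not between embryos. That spread is a single estimate per gene, shared by all groups and drawn towards that of genes with a similar mean. It is not the spread of the compared groups alone.

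Facilitative glucose carriers of family 2 let glucose into cells down its gradient, and proton-linked carriers of family 16 move lactate and pyruvate in or out. Amino acids enter through sodium-coupled uptake carriers, of families 1, 6 and 38 here, and through exchangers such as the family 7 light chains, which reach the cell surface bound to the family 3 heavy chain Slc3a2. Around neural tube closure the rodent embryo is known for rapid glucose use with release of lactate.

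The deposited values are ratios, each gene having been divided by its own median over the 16 libraries. A level here gives how many times a value exceeds the gene's own lowest value, so it compares libraries for 1 gene and never compares 2 genes. In 36 of the 50 carriers at least 2 libraries share the lowest value, the floor, and a level of 1 means that the gene is at its floor. The other 14 show no such tie, and for them levels may understate the distance from a floor. Log2 differences are relative to the median gene: the difference in the median of the 7082 genes with no tied lowest value was subtracted. A gene was called at an adjusted p under 0.05 (limma, Benjamini-Hochberg over 12851 genes) with a difference of 2-fold or more in 1 direction both relative to the median gene and as deposited, and 40 of the 50 carriers were above their floor in at least 3 libraries and could be tested. In bulk tissue, fewer cells of a type and less RNA per cell cannot be told apart.

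Several libraries need a remark before the results. The library labelled medial nasal prominence had a summed level of 10.02 over 10 facial mesenchyme markers, 9 of them at their lowest value, against 105 to 146 in the other E10.5 facial libraries, and 163 over 8 neural progenitor markers against 9.01 to 12.2. It goes against its label and was kept as a group of its own. The E10.5 neural libraries titled central and dorsal control carry each other's name in the headers of their files, and Wnt8b was at level 11.2 in the one titled central while Vax1 was at 12.4 in the one titled dorsal control. Both are in the same group, so the tests do not depend on which is which. The epidermal ectoderm library had a summed level of 234 over 8 measured surface epithelium markers, but also 82.6 over the neural progenitor markers, and the olfactory pit library had 295 and 79.4. Over the 10 facial mesenchyme markers the ectoderm had 38.9, with 3 at their lowest value, and the pit 19.4, with 6. Values were low as a whole in 5 E10.5 libraries. In the lateral nasal prominence, both arches and the neural libraries lateral prominence and central, 72.4 to 81.5% of the genes with a shared floor were at it, against 50.6 to 63.8% in the other 11.

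The promoters of Slc2a1, Slc16a3 and Slc16a1 are shown because these 3 carriers of glucose and lactate passed the test in both comparisons of stage. The fourth carrier that did, the amino acid carrier Slc38a4, has 3 windows, which hold 0 of the letters marked here and are not printed. Each sequence is the 250 bases before a RefSeq transcript start (build GRCm38.p6), read 5′ to 3′ on the + strand of the gene, with the letters ACGTG, the core of the hypoxia response element, in capitals wherever they occur on either strand.
Slc2a1, chr4:119108495-119108744: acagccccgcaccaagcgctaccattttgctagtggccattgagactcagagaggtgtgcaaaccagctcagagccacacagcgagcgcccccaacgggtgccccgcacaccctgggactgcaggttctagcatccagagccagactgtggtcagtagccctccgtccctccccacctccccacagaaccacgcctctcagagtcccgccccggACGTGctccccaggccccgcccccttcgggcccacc
Slc16a3, chr11:120948817-120949066: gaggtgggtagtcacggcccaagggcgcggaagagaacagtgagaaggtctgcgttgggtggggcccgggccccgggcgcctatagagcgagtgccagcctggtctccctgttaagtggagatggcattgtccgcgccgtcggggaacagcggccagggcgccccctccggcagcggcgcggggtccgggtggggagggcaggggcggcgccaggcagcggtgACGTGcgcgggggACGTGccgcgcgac
Slc16a1, chr3:104638414-104638663: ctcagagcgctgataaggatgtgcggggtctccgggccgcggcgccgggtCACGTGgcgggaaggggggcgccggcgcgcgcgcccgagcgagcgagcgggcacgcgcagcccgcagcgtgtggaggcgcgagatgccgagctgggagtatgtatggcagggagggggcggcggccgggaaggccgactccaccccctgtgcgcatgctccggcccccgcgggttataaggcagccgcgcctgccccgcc
The Slc2a1 window holds the letters once, from base 215, and the Slc16a3 window holds them at bases 224 and 237. In Slc16a1 the 2 matches, at bases 51 and 52, are 1 palindrome, CACGTG, read on both strands. RefSeq windows were found for 32 of the 49 symbols. ACGTG occurred in 11 of their 44 windows (25.0%) and in 16.6% of all 32817 windows, and TGATGNAA, the core of the amino acid response element, in 3 of 44 (6.82%) and in 3.45% of all. A match describes the letters and not a bound site. In the GRCm38 gene annotation Slc16a3 starts at 120948480, so its window lies inside the annotated gene. Slc2a1 starts there at 119108711, so the end of its window does too.

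Of the 50 carriers, 16 reached a level of 5 or more in at least 1 library (32.0%, against 32.5% of all genes). A further 20 peaked between 2 and 4.88, 5 between 1.5 and 2, and 9 below 1.5. There were 11 carriers at their floor in 13 or more libraries, among them Slc2a5, Slc3a1, Slc5a2, Slc7a3, Slc7a7, Slc7a11, Slc16a7, Slc16a10, Slc16a14 and the second row of Slc38a9. Carriers at a level of 5 or more numbered 5 to 10 per library at E8.5 and 8 to 10 at E9.5. At E10.5 they numbered 1 to 2 in the facial and neural libraries, 4 in the olfactory pit and 5 for the library labelled medial nasal prominence. Levels are not relative to the median gene, and the share of all genes at such a level was not worked out per library. Library medians, against the mean over libraries, were -0.82 to -0.07 (log2) in these E10.5 facial and neural libraries. They were -0.004 to 0.40 at E8.5 and E9.5, so the counts are no result about carriers.

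**Figure D1:**
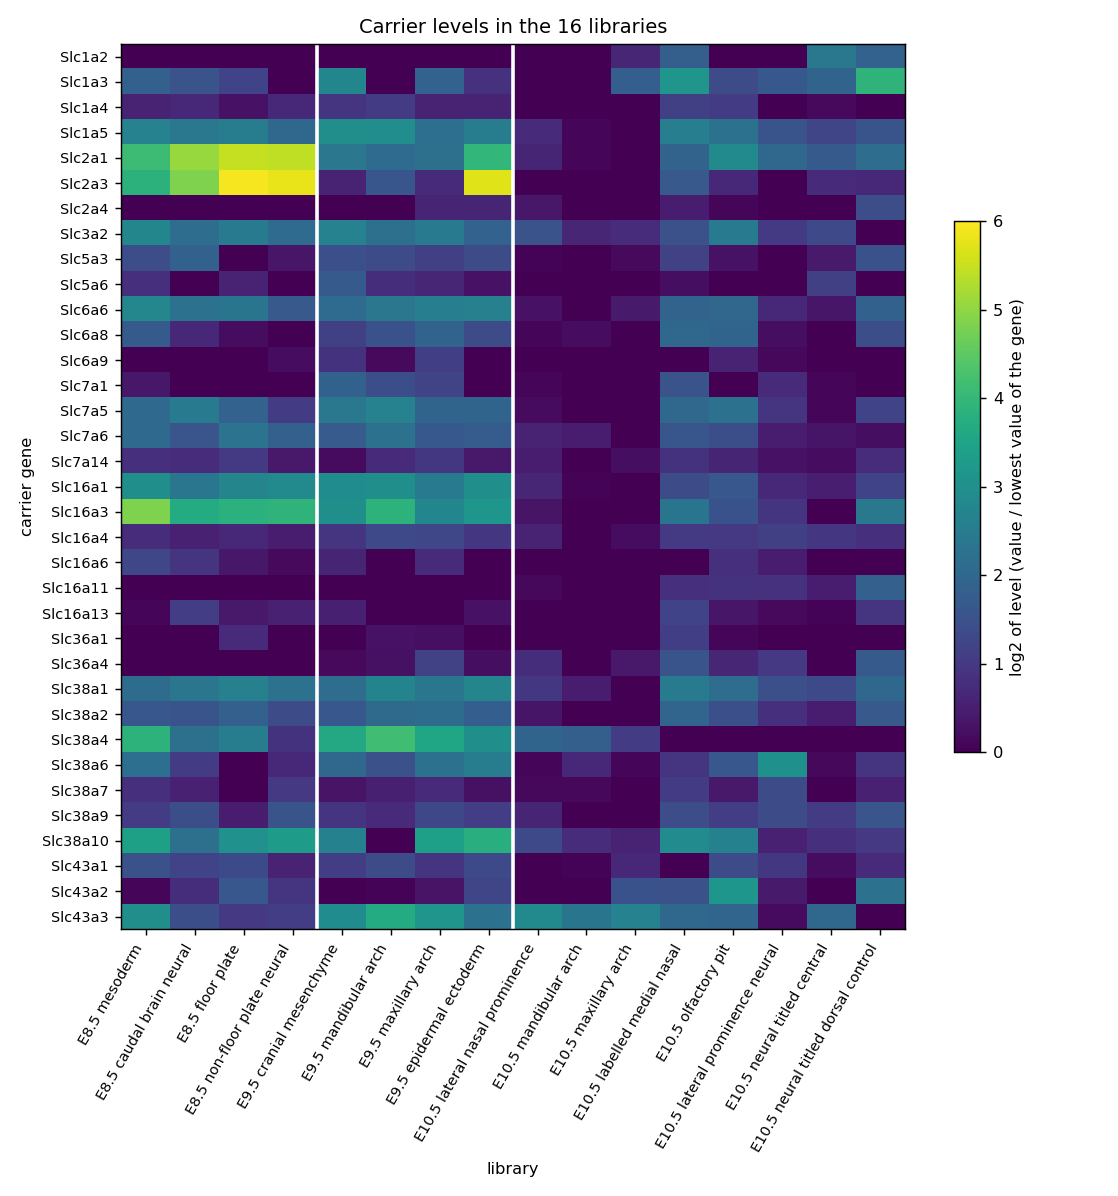
Levels of 35 of the 36 carriers that reached a level of 2 or more (rows, by family) in the 16 libraries (columns, by stage, with white lines between stages). Colour gives the log2 of the level, from 0 at the lowest value of the gene to 6, and the brightest cells are Slc2a1 and Slc2a3 in E8.5 neural libraries, with levels up to 44.5 and 60.9, and Slc2a3 in the E9.5 epidermal ectoderm, at 52.2.

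Stage was compared within neural epithelium (E10.5 against E8.5) and within facial tissue (E10.5 prominence and arches against E9.5 mesenchyme and arches). No neural region was sampled at both stages, so stage and region cannot be told apart there. In facial tissue both arches were sampled at both stages, while cranial mesenchyme stands against the lateral nasal prominence. In neural epithelium 2 of 40 carriers were called higher at E10.5 and 7 lower, where 3.72% of all genes tested were called higher and 7.10% lower. The 7 were Slc2a1, Slc2a3, Slc16a1, Slc16a3, Slc38a4, Slc7a6 and Slc3a2, and the 2 were Slc16a11 and Slc1a2. In facial tissue 8 of 40 were called lower (Slc16a3, Slc16a1, Slc1a5, Slc7a5, Slc38a4, Slc6a6, Slc2a1 and Slc38a1) and 0 higher, where 6.29% of all genes were lower and 1.59% higher. At an unadjusted p under 0.05 there were 15 of 40 in neural epithelium, against 34.95% of all genes tested, and 22 of 40 in facial tissue, against 42.4%. The median carrier differed by 0.09 in neural epithelium and by 0.03 in facial tissue on the log2 scale (all genes 0.11 and 0.23). Over the carriers with neither group wholly at the floor the medians were -0.05 (29 carriers) and -0.42 (28 carriers), beside 0.06 and 0.08 for all such genes. As deposited the carriers' medians were -0.28 and -0.89, since the median gene itself was lower by 0.37 and by 0.92. Of all genes called, 34.4% were higher in neural epithelium and 20.2% in facial tissue, and as deposited 18.2% and 3.49%.

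Markers of other cell types differed between the stages too. In the neural libraries the summed level of 8 erythroid markers went from 8.17 to 11.02 at E8.5, with 7 at their lowest value in each library, to 72.9 to 112 at E10.5, with 3 to 4 at their lowest. The sum of 9 neuron markers went from 16.4 to 31.3 at E8.5 to 28.1 to 44.4 at E10.5, which overlap, with 5 to 7 and 1 to 2 markers at their lowest value. In facial tissue the sum of 8 endothelium markers went from 44.2 to 51.6 at E9.5 to 19.4 to 20.5 at E10.5. The erythroid sums there overlapped, at 752 to 4318 and 426 to 1520. The part of these cells in the stage results was not tested.

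**Figure D2:**
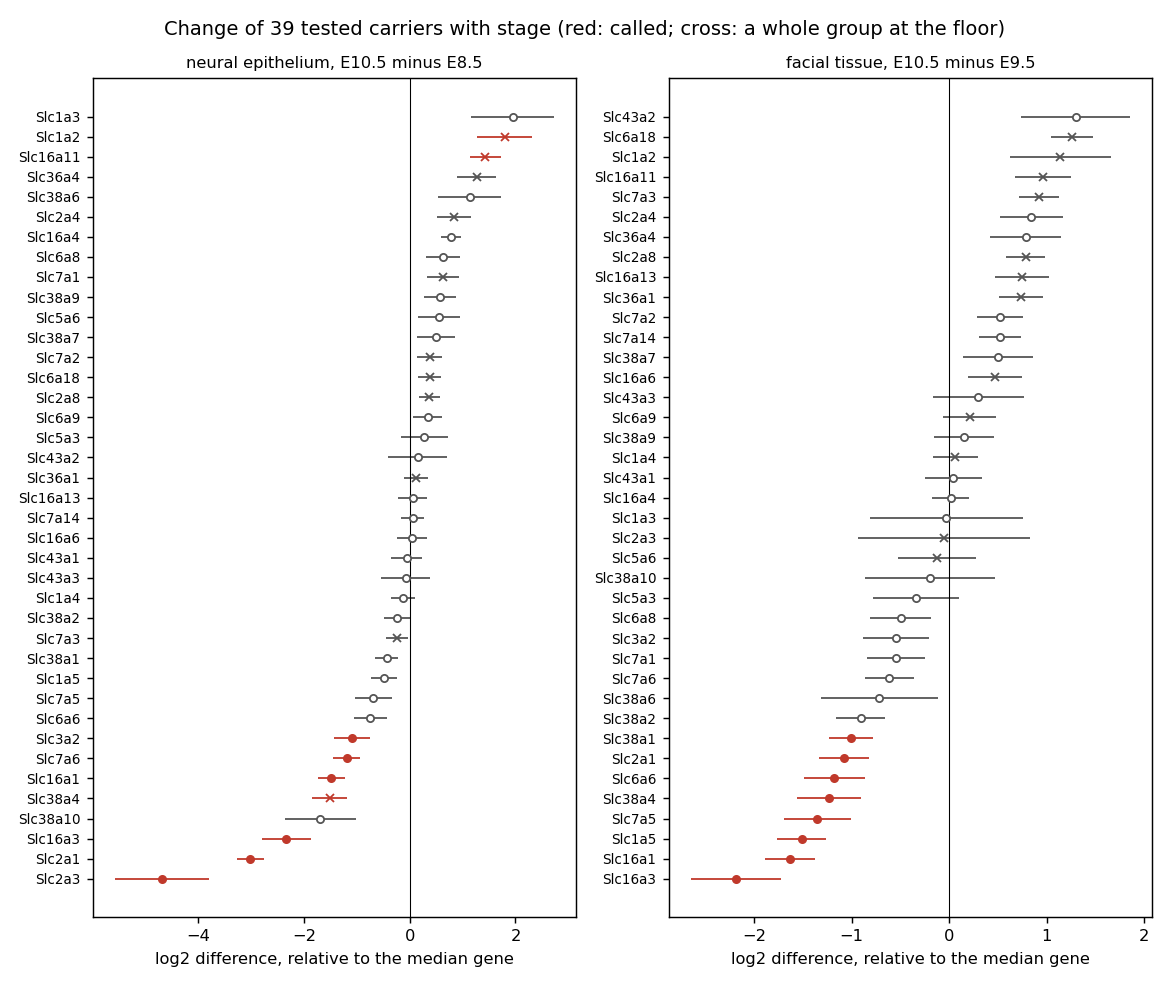
Log2 difference (x axis, relative to the median gene, bars ± 1 SE) of 39 of the 40 tested carriers (y axis) between stages, in neural epithelium (left) and facial tissue (right). Red marks the 9 and 8 called carriers, and a cross marks a carrier with a whole group at the floor, whose position depends on the floor.

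Slc2a1 (GLUT1), the widespread basal glucose carrier, was at levels of 33.9 in caudal brain, 44.5 in floor plate and 43.3 in non-floor plate at E8.5. At E10.5 its levels were 4.08 in lateral prominence, 3.22 in central and 4.40 in dorsal control neural epithelium. The groups were far apart, with means of 40.5 ± 5.79 and 3.90 ± 0.61 (SD, n = 3 each). The log2 difference was -3.01 (SE 0.26, adjusted p = 0.000119), and it was called under all 19 other settings tried, at -2.86 to -3.38.

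In facial tissue Slc2a1 was at 5.20 in cranial mesenchyme, 4.26 in mandibular and 4.66 in maxillary arch at E9.5, and at 1.54 in the lateral nasal prominence, 1.05 in the mandibular and 1 in the maxillary arch at E10.5. The groups did not overlap, and the log2 difference was -1.08 (SE 0.26, adjusted p = 0.0111). That call rests on single libraries. Without the E9.5 cranial mesenchyme the difference was -0.96, and without the E10.5 mandibular or maxillary arch the adjusted p was 0.0676 or 0.0574.

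Slc2a3 (GLUT3), a high-affinity glucose carrier best known from neurons and early embryos, was at 28.8 in caudal brain, 60.9 in floor plate and 55.5 in non-floor plate at E8.5. In the E10.5 neural libraries it was at 1, 1.65 and 1.60. The E8.5 libraries were all higher, and the log2 difference was -4.69 (SE 0.89, adjusted p = 0.00516). In facial tissue it was already low at E9.5, at 1.51, 3.03 and 1.66, and was at the floor in all 3 E10.5 libraries. The test gave an adjusted p of 0.970 there, with 1 whole group at the floor.

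The other measured glucose carriers of family 2 stayed near their floor. Slc2a4 (GLUT4), the insulin-responsive carrier, peaked at 2.67 in the library titled dorsal control, Slc2a8 at 1.87 in epidermal ectoderm and Slc2a5, a fructose carrier, at 1.09. Among the sodium-coupled family 5, Slc5a2 peaked at 1.22.

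**Figure D3:**
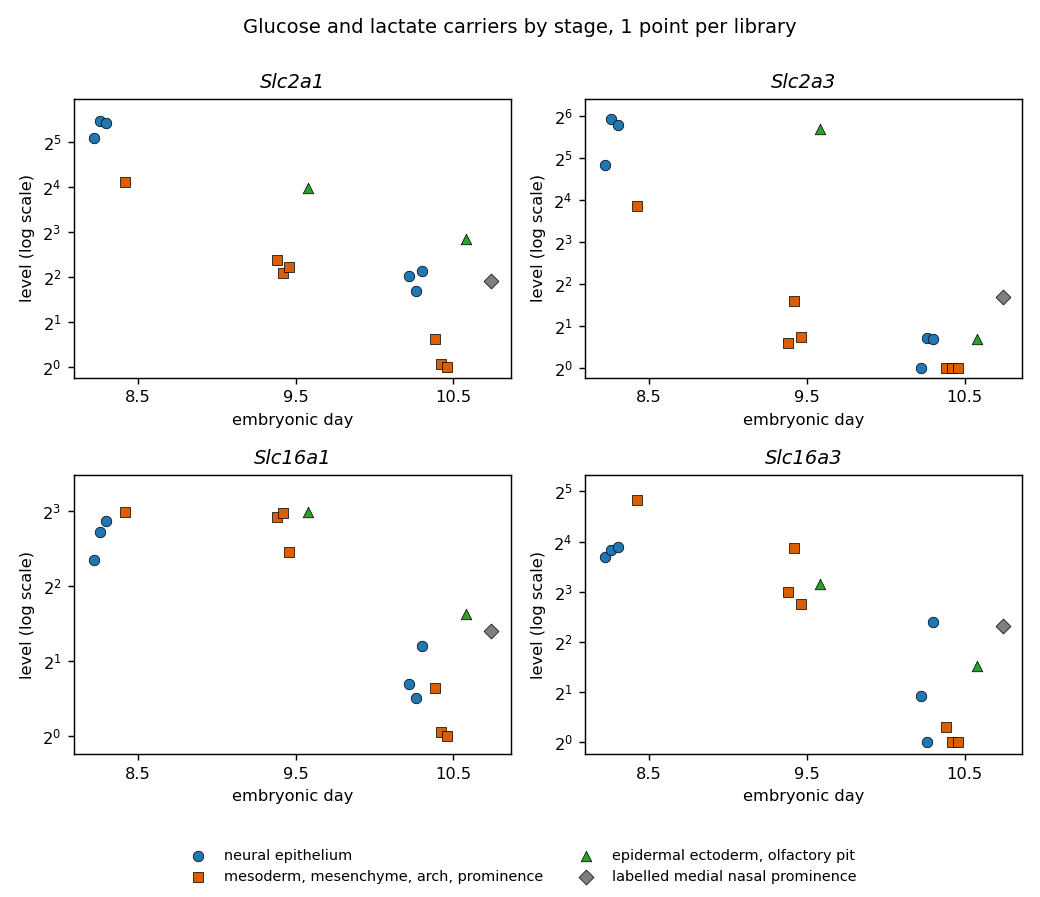
Levels (y axis, log scale, value over the lowest value of the gene) of the glucose carriers Slc2a1 and Slc2a3 and the lactate carriers Slc16a1 and Slc16a3 by embryonic day (x axis, points spread sideways), with 1 point per library and symbols by tissue. All 3 neural libraries are lower at E10.5 than at E8.5 in each panel, and the epidermal ectoderm lies above the other E9.5 libraries for both glucose carriers, at 15.7 and 52.2.

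Slc16a3 (MCT4), known as the lactate exporter of glycolytic cells, was at 12.9, 14.3 and 14.9 in the E8.5 caudal brain, floor plate and non-floor plate, and at 1.89, 1 and 5.30 in the E10.5 lateral prominence, central and dorsal control libraries. The lowest E8.5 library was above the highest E10.5 library, and the log2 difference was -2.33 (SE 0.46, adjusted p = 0.00633). In facial tissue the levels were 7.94, 14.7 and 6.79 at E9.5 and 1.24, 1 and 1 at E10.5, in the order in which the regions are named above. The log2 difference was -2.19 (SE 0.46, adjusted p = 0.00681), and it was called without each library in turn. The window shown above for this gene has the hypoxia core letters at 2 places, where 16.6% of all windows hold them. Their part in the stage result was not tested.

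Slc16a1 (MCT1), which moves lactate and pyruvate in both directions, was at 5.12, 6.61 and 7.29 in E8.5 neural epithelium and at 1.62, 1.42 and 2.30 at E10.5. The groups did not overlap, and the log2 difference was -1.48 (SE 0.25, adjusted p = 0.00359). In facial tissue the levels went from 7.61, 7.90 and 5.49 to 1.56, 1.05 and 1, with a log2 difference of -1.63 (SE 0.25, adjusted p = 0.00210). Both calls held without each library in turn.

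Slc16a11, a less studied member of family 16, was at the floor in all 8 libraries of E8.5 and E9.5. At E10.5 it was at 1.82, 1.39 and 3.59 in neural epithelium, 1.85 in the olfactory pit and 1.77 for the library labelled medial nasal prominence, but at 1.09, 1 and 1 in the other facial libraries. It was called higher in E10.5 neural epithelium than at E8.5 (adjusted p = 0.00678), by at least 1.69-fold relative to the median gene and 1.39-fold as deposited. Without the dorsal control library it was not called, with an adjusted p of 0.00908 relative to the median gene but no call on both scales. Of the further members of family 16, Slc16a10 peaked at 1.10, Slc16a6 at 2.43 and Slc16a4 at 2.52.

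The called carriers can be set beside pairs of libraries whose values are not low as a whole. The medians of the olfactory pit and epidermal ectoderm libraries were 0.21 and 0.34 (log2) above the mean over libraries. Slc2a3 was at 1.61 in the pit and 52.2 in the ectoderm, Slc2a1 at 7.18 and 15.7, Slc16a3 at 2.87 and 8.91, and Slc16a1 at 3.1 and 7.92. Of the 8 carriers called lower in facial tissue, 7 were lower in the pit than in the ectoderm, and Slc7a5 was higher, at 4.71 against 3.84. Slc3a2, called lower in neural epithelium, was higher in the pit as well, at 5.43 against 3.72. The tissues of this pair differ too, the share of all genes lower in the pit was not worked out, and single libraries allow no test. Dorsal control at E10.5 and non-floor plate at E8.5 had medians of -0.07 and -0.004. Relative to the median gene, dorsal control was 33.0-fold lower for Slc2a3, 9.40-fold for Slc2a1, 3.03-fold for Slc16a1 and 2.69-fold for Slc16a3. Both libraries of this pair belong to the groups compared for neural stage. Those groups did not overlap for any of the 7 carriers called lower, so each had to be lower in dorsal control, which adds no support. Slc7a5 and Slc6a6, called in facial tissue, were higher in dorsal control than in non-floor plate, at 2.30 against 2.09 and at 3.66 against 3.20.

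When the low libraries themselves were left out, the neural and facial results differed. Without the E10.5 lateral prominence and central libraries, which leaves dorsal control alone at E10.5, Slc2a1 was still called. The log2 differences of Slc2a3, Slc16a1 and Slc16a3 were -4.58, -1.19 and -1.15, with adjusted p of 0.114, 0.0625 and 0.0998. Without both E10.5 arches, which leaves the lateral nasal prominence alone, 0 carriers were called in facial tissue, where 208 genes were called in place of 1012. The differences of Slc16a1 and Slc16a3 were then -1.48 and -2.23, with adjusted p of 0.0786 and 0.139. With the library labelled medial nasal prominence added to the E10.5 group, 2 carriers were called, Slc16a1 and Slc16a3.

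Enzymes of glycolysis make pyruvate from the glucose that these carriers bring in. The list used also holds Ldha, Ldhb, Pdk1 and Pdha1, which act on pyruvate or control its oxidation. Of its 20 symbols 19 were measured and tested, Pkm2 and Pkm being symbols of the same gene. In neural epithelium 11 were called lower, where 7.10% of all genes were, and in facial tissue 9, where 6.29% were, with 0 higher in either. The median of the list was -1.36 and -0.78 on the log2 scale, beside 0.11 and 0.23 for all genes tested. Ldha, the lactate dehydrogenase subunit that favours lactate, was at 29.0, 24.0 and 19.1 in E8.5 neural epithelium and at 2.24, 1.55 and 2.21 at E10.5. Its log2 difference was -3.22 (SE 0.20), followed by Eno1 (enolase) at -2.60, Aldoa (aldolase) at -2.42 and Tpi1 (triose phosphate isomerase) at -2.05. In facial tissue the largest were Pfkl (phosphofructokinase) at -2.18, Tpi1 at -1.87, Ldha at -1.85 and Pkm (pyruvate kinase) at -1.72. Ldhb, which favours the reverse reaction, had differences of 0.25 (SE 0.70) and 0.78 (SE 0.70) and was not called. Without both E10.5 arches, 6 genes of the list were called lower in facial tissue.

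**Figure D4:**
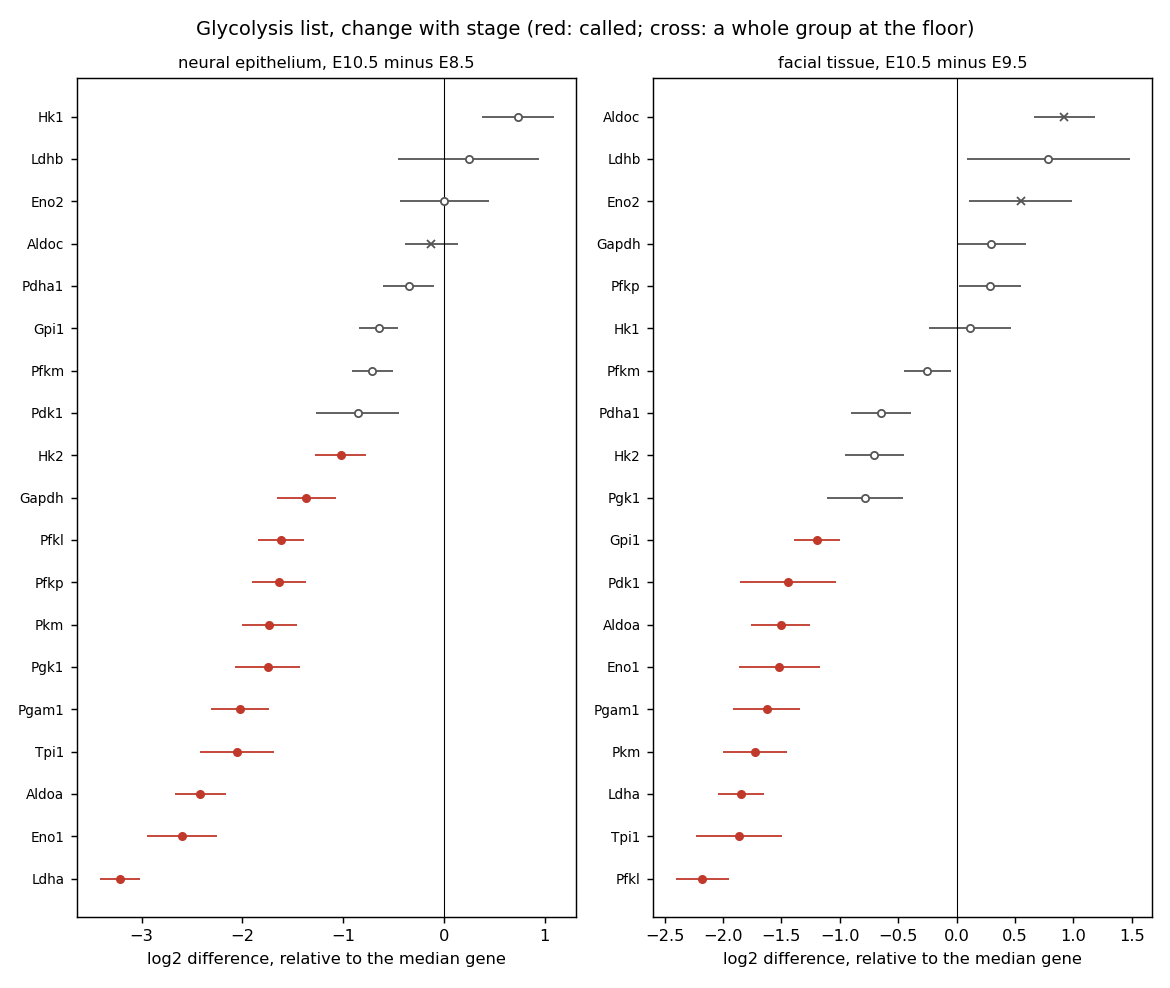
Log2 difference (x axis, relative to the median gene, bars ± 1 SE) of the 19 measured glycolysis genes (y axis) between stages, in neural epithelium (left) and facial tissue (right). Red marks the 11 and 9 called genes, all on the lower side, and a cross marks a gene with a whole group at the floor.

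Bsg (basigin), the membrane protein that escorts Slc16a1 and Slc16a3 to the cell surface, was called lower at E10.5 in both tissues. It was at 14.3, 19.3 and 11.1 in E8.5 neural epithelium and at 2.73, 2.23 and 5.50 at E10.5, a log2 difference of -1.80 (SE 0.28, adjusted p = 0.00211). In facial tissue the difference was -1.36 (SE 0.28, adjusted p = 0.00618), and it was not called without both E10.5 arches. Of the 6 measured genes in the list of carrier partners, Bsg was the 1 called in either comparison. A list of hypoxia targets gave 2 of 12 tested genes lower in neural epithelium and 0 of 12 in facial tissue. The 2 were Bnip3 at -1.49 and Ankrd37, which was at the floor in all 3 E10.5 libraries. Beside both lists, 7.10% of all genes were called lower in neural epithelium and 6.29% in facial tissue. The call of Bnip3 was lost under 8 of 19 other settings, among them the removal of any E8.5 neural library (adjusted p 0.0515 to 0.108). The list's medians were 0.04 and -0.02.

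Slc38a4 (SNAT4), a sodium-coupled neutral amino acid carrier and an imprinted gene, fell at the later stage in both tissues. It was at 4.65, 5.83 and 1.84 in E8.5 neural epithelium and at the floor in all 3 E10.5 neural libraries (adjusted p = 0.00927), lower by at least 1.52-fold relative to the median gene and 1.84-fold as deposited. In facial tissue it went from 12.2, 18.0 and 11.4 to 3.84, 3.55 and 2.10, a log2 difference of -1.23 (SE 0.33, adjusted p = 0.0174). Without the E9.5 mandibular arch or the E10.5 maxillary arch the adjusted p was 0.0655 or 0.0634. It was also at the floor in the library labelled medial nasal prominence and in the olfactory pit.

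Slc1a5 (ASCT2), an exchanger of glutamine and other neutral amino acids, was at 7.86, 7.67 and 4.59 in E9.5 facial tissue and at 1.64, 1.07 and 1 at E10.5. The groups did not overlap, and the log2 difference was -1.51 (SE 0.25, adjusted p = 0.00251). In neural epithelium it went from a mean of 5.02 ± 0.93 to levels of 2.95, 2.40 and 2.94, with a log2 difference of -0.48 (SE 0.25, adjusted p = 0.190).

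Slc7a5 (LAT1), the light chain of the large neutral amino acid exchanger, went in facial tissue from 5.30, 6.35 and 3.81 to 1.13, 1 and 1. The log2 difference was -1.35 (SE 0.35, adjusted p = 0.0147), and without the E9.5 mandibular arch the adjusted p was 0.0572. Its heavy chain Slc3a2 (4F2hc) was at 6.34, 4.68 and 5.55 at E9.5 and at 2.92, 1.58 and 1.69 at E10.5, and the difference of -0.55 (SE 0.34) was not called in facial tissue (adjusted p = 0.244). In neural epithelium the heavy chain Slc3a2 was called lower (-1.09, SE 0.34, adjusted p = 0.0425), and the light chain Slc7a5 was not (-0.69, SE 0.35, adjusted p = 0.178). The Slc3a2 call was lost under 14 of 19 other settings, among them the removal of each E8.5 neural library, of lateral prominence and of dorsal control (difference without the last -0.65, adjusted p = 0.0885).

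Slc7a6 (y+LAT2), a light chain that exchanges cationic for neutral amino acids on the same heavy chain, was at 3.01, 4.88 and 3.61 in E8.5 neural epithelium and at 1.4, 1.26 and 1.17 at E10.5. The log2 difference was -1.19 (SE 0.25, adjusted p = 0.00813), and it was called under all 19 other settings. In facial tissue the difference was -0.61 (SE 0.25, adjusted p = 0.0832). The other members of family 7 peaked between 1.35 (Slc7a11, the cystine exchanger) and 3.61 (Slc7a1, a cationic amino acid carrier).

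Slc38a1 (SNAT1), a sodium-coupled glutamine carrier, was at 4.44, 6.54 and 5.15 in E9.5 facial tissue and at 1.96, 1.39 and 1 at E10.5, a log2 difference of -1.01 (SE 0.22, adjusted p = 0.00808) that is just past 2-fold. Without the E9.5 mandibular arch or the E10.5 maxillary arch it was -0.86 in both cases, under 2-fold. Its relative Slc38a2 (SNAT2), the amino acid responsive member, had a difference of -0.91 (SE 0.25, adjusted p = 0.0204), short of 2-fold, and was called at -1.02 without the E9.5 cranial mesenchyme. The genes Slc38a1, Slc38a2 and Slc38a4 lie within 484.5 kb of each other in the GRCm38 annotation, on chromosome 15.

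Slc6a6, the taurine carrier, went in facial tissue from 4.28, 5.18 and 5.88 to 1.24, 1 and 1.34, a log2 difference of -1.18 (SE 0.31, adjusted p = 0.0173). Without the E9.5 maxillary arch or the E10.5 mandibular arch the adjusted p was 0.0572 or 0.0562. In neural epithelium, where dorsal control stayed at 3.66 beside 1.60 and 1.29, the difference was -0.75 (SE 0.31, adjusted p = 0.114), and without dorsal control it was -1.14 and called.

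The result for Slc38a10 turned on a single library. It was at 6.22 and 10.4 in the E9.5 cranial mesenchyme and maxillary arch but at its lowest value in the E9.5 mandibular arch, while E10.5 facial levels were 2.48, 1.71 and 1.49. With that library the facial difference was -0.20 (SE 0.67, adjusted p = 0.850) and the neural difference -1.69 (SE 0.67, adjusted p = 0.0963). Without it both were called, at -1.21 (adjusted p = 0.0387) and -1.69 (adjusted p = 0.00662). The neural groups do not hold that library, but all groups share a single estimate of the spread per gene.

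The carriers of glutamate clear the transmitter in the mature brain. Slc1a2 (GLT-1) was at the floor in all 8 libraries of E8.5 and E9.5, and at 1, 5.28 and 3.72 in the E10.5 lateral prominence, central and dorsal control libraries. It was called higher in E10.5 neural epithelium (adjusted p = 0.0316), although lateral prominence was at the floor too. The call was lost without any of the 3 E8.5 libraries, without central (adjusted p = 0.1) or without dorsal control (adjusted p = 0.0781), as deposited (adjusted p = 0.0640), and with the 2 arch regions as a block (adjusted p = 0.0540). Slc1a3 (GLAST), a marker of radial glia, was at 2.91, 2.30 and 1.01 at E8.5 and at 3.15, 3.84 and 14.9 at E10.5, a log2 difference of 1.95 (SE 0.78) that was not called (adjusted p = 0.101). Of the 9 tested genes for handling glutamate, glutamine and GABA, 0 were called in neural epithelium, and Glul (glutamine synthetase, log2 difference -1.21) was called lower in facial tissue, a call lost under 8 of 19 other settings, among them the removal of any E10.5 facial library (adjusted p 0.0529 to 0.114).

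The list of amino acid response genes holds genes that respond to amino acid shortage through Atf4. Where 7.10% of all genes were called lower in neural epithelium and 6.29% in facial tissue, 2 of its 15 tested genes were lower in each and 0 higher. These were Atf4 itself (-1.24) and Shmt2 (-1.06) in neural epithelium, and Shmt2 (-2.18) and Psat1 (-1.10) in facial tissue, the latter 2 being enzymes of serine and glycine synthesis. Without lateral prominence Atf4 was at -0.94, and Shmt2 was at -0.97 in neural epithelium without non-floor plate and -0.84 without dorsal control, all under 2-fold. Psat1 was at -0.98 without the lateral nasal prominence and -0.99 without the E10.5 mandibular arch. The list medians were -0.17 and -0.37.

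**Figure D5:**
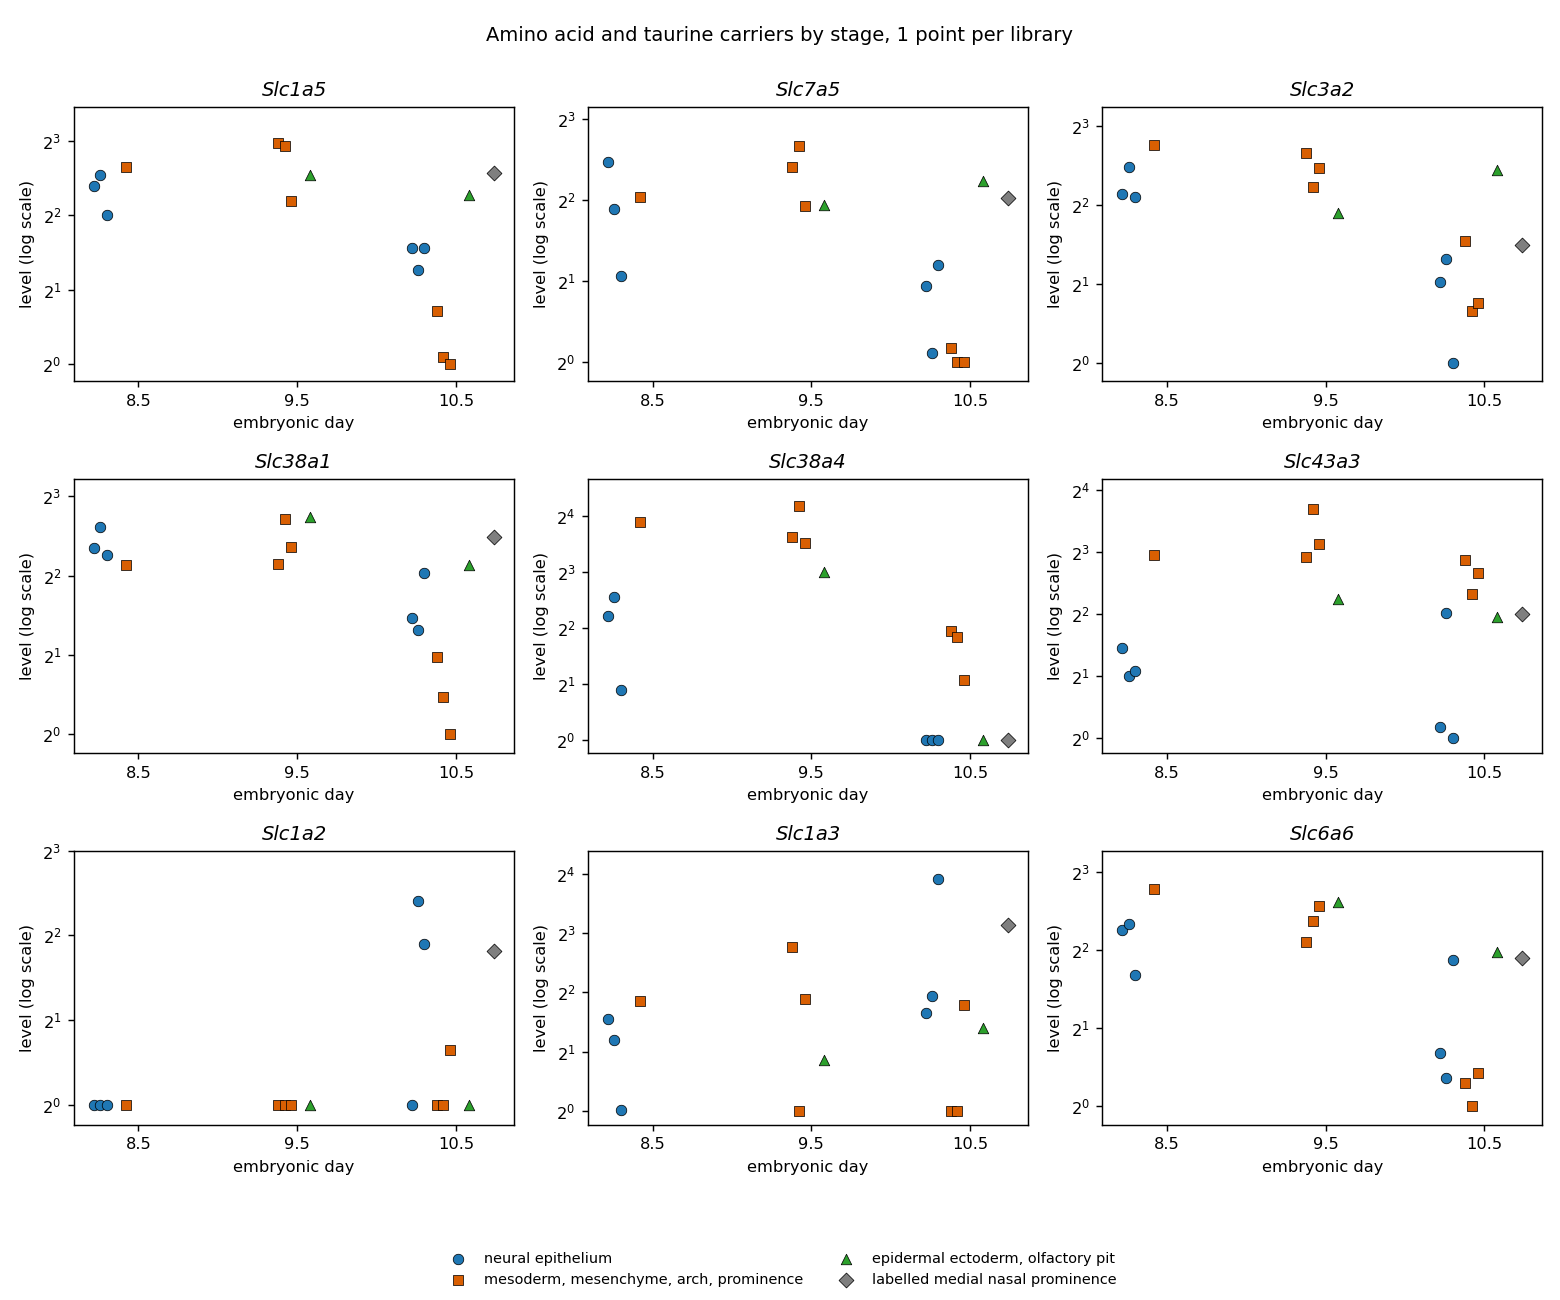
Levels (y axis, log scale) of 9 carriers of amino acids, their heavy chain, purine bases or taurine by embryonic day (x axis, points spread sideways), with 1 point per library and symbols by tissue. Slc38a4 and Slc43a3 lie higher in mesoderm and facial libraries than in neural libraries of the same stage, and Slc1a2 leaves its floor at E10.5.

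Tissues were compared within a stage. At E10.5 neural epithelium was set against the lateral nasal prominence and arches, and 1 of 40 carriers was called higher and 2 lower, where 2.76% of all genes were called higher and 1.85% lower. Slc2a1 was higher, at 4.08, 3.22 and 4.40 against 1.54, 1.05 and 1, with a log2 difference of 1.27 (SE 0.26, adjusted p = 0.0136). Without the mandibular arch or the lateral prominence neural library the adjusted p was 0.103 or 0.0514. Slc38a4 was lower, at the floor in all 3 neural libraries against 3.84, 3.55 and 2.10, by at least 3.06-fold relative to the median gene and 2.10-fold as deposited (adjusted p = 0.00359). Slc43a3 was lower too. It was at 1.14, 4.05 and 1 in neural epithelium against 7.31, 5.02 and 6.32, with a log2 difference of -2.34 (SE 0.46, adjusted p = 0.0122).

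The carriers' median difference was -0.06, beside -0.20 for all genes. As deposited 5 carriers were called higher, Slc16a11, Slc1a5, Slc38a1 and Slc38a9 besides Slc2a1, and the share of higher genes among all called moved from 59.9 to 87.0%. With the library labelled medial nasal prominence added to the facial group, or without both arches, 0 carriers were called.

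Beside the results for Slc43a3 and Slc38a4, markers of blood vessels and blood differed between these tissues too. Summed over 8 endothelium markers, levels were 19.4 to 20.5 in the E10.5 facial libraries and 8 to 11.9 in the neural libraries, with 8 meaning every marker at its lowest value, as in dorsal control, where Cdh5 was at 1. Summed over 8 erythroid markers they were 426 to 1520 and 72.9 to 112. In the E8.5 mesoderm the endothelium sum was 84.3, against 8.74 to 9.69 in E8.5 neural epithelium. The part of these cells in either result was not tested.

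At E8.5 neural epithelium was set against the single mesoderm library, which the test assumes to vary like the other groups. Here 0 of 40 carriers were called with limma, where 0.226% of all genes were called higher and 0.591% lower, and 5 had an unadjusted p under 0.05 (Slc2a1, Slc38a4, Slc43a3, Slc6a8 and Slc7a3), against 9.57% of all genes. Slc2a1 was at 17.2 in mesoderm against 33.9 to 44.5 in neural epithelium, a log2 difference of 1.44 (SE 0.37, adjusted p = 0.117). Slc38a4 was at 14.8 against 1.84 to 5.83 (-1.79, SE 0.46, adjusted p = 0.124), and Slc43a3 at 7.76 against 2 to 2.72 (-1.57, SE 0.66, adjusted p = 0.445). Slc16a3 was at 28.6 in mesoderm, its highest level in any library, against 12.9 to 14.9. The median carrier difference was 0.04, and all genes had 0.06. The share of higher genes among all called was 27.6%, and 13.4% as deposited.

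Whether the neural difference from mesenchyme itself differed between E10.5 and E8.5 was tested as an interaction. Of the carriers 0 were called, with 0.00778% of all genes called in each direction (1 gene higher and 1 lower) and 4 of 40 carriers at an unadjusted p under 0.05, with adjusted p from 0.259 to 0.465, against 10.7% of all genes. The carriers' median was -0.11, beside -0.17 for all genes. Of all genes called 50.0% were higher, and 97.9% of 194 as deposited.

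Surface epithelium was compared with facial mesenchyme of the same stage, as the mean of epidermal ectoderm against E9.5 mesenchyme and arches and of olfactory pit against E10.5 prominence and arches. In this comparison 1 of 40 carriers was called higher and 1 lower, where 2.08% of all genes were higher and 1.13% lower. Slc2a1 was higher, at 15.7 in ectoderm against 4.26 to 5.20 and at 7.18 in the pit against 1 to 1.54, with a log2 difference of 1.73 (SE 0.26, adjusted p = 0.00352). Slc38a4 was lower, at 7.96 in ectoderm against 11.4 to 18.0 and at the floor in the pit against 2.10 to 3.84 (adjusted p = 0.0164). In the pit it was lower by at least 4.29-fold relative to the median gene and 2.10-fold as deposited. As deposited, Slc38a4 was not called (adjusted p = 0.0747), and without both E10.5 arches neither was. The endothelium sum was 8.28 and 8.34 in ectoderm and pit, with 7 of 8 markers at their lowest value in each, and its part in the Slc38a4 result was not tested. The facial mesenchyme sum was 38.9 in ectoderm and 19.4 in the pit, and its part was not tested either. Bsg was called higher in the epithelia (1.20, SE 0.28, adjusted p = 0.0333), a call lost under 10 of 19 other settings with adjusted p up to 0.291, while 0 of 19 glycolysis genes were called. The median was -0.12 for carriers and -0.09 for all genes, and the share of higher genes among all called was 64.8%, and 89.0% as deposited.

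The 2 epithelia were unlike for Slc2a3. It was at 52.2 in epidermal ectoderm, in the range of the E8.5 neural libraries, and at 1.61 in the olfactory pit, so the mean difference of 2.26 (SE 0.89) had an adjusted p of 0.194. Neural progenitor markers were present in both libraries, with Sox2 at 30.7 and 28.2 and Pax6 at 25.9 and 27.0, and their part in the Slc2a3 level of the ectoderm was not tested. Slc43a2 (LAT4), a carrier of branched-chain and aromatic amino acids, was at 8.95 in the pit, its highest level, and at 2.40 in the ectoderm, with 4.76 in dorsal control and up to 3.1 elsewhere. Slc38a10 peaked in the ectoderm, at 13.5.

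The olfactory pit was compared with E10.5 neural epithelium as a single library against 3. Here 0 of 40 carriers were called with limma, where 2.12% of all genes were called higher and 1.06% lower, and 5 had an unadjusted p under 0.05, against 20.3% of all genes. These were Slc3a2 (1.27), Slc43a2 (1.88), Slc6a8 (1) and Slc7a5 (1.09) on the higher side and Slc1a2 on the lower, with adjusted p from 0.168 to 0.236. Slc1a2 was at the floor in the pit. Slc3a2 was at 5.43 in the pit against 1 to 2.49, and Slc7a5 at 4.71 against 1.08 to 2.30. Other carriers, among them Slc1a5, Slc7a6 and Slc38a10, also lay above all 3 neural libraries. The median gene itself was 0.39 (log2) higher in the pit, and the share of all genes above all 3 was not worked out. Slc2a1 was at 7.18 against 3.22 to 4.40 (0.50, SE 0.37, adjusted p = 0.468). Ldha was called higher in the pit (1.39, SE 0.28, adjusted p = 0.0265), at 6.79 against 1.55 to 2.24. That call was lost under 5 of 19 other settings, among them the removal of central (adjusted p = 0.0539) and of lateral prominence with central (0.0855). Phgdh, the first enzyme of serine synthesis, was called higher (2.90, adjusted p = 0.0475) and Psat1, the next enzyme, lower (-1.43, adjusted p = 0.0497), and these calls were lost under 12 and 15 of the 19, with adjusted p up to 0.0874 and 0.193. The carriers' median was -0.18, beside -0.08 for all genes, and the share of higher genes among all called was 66.7%, and 89.8% as deposited. As deposited 1 carrier was called, Slc1a4 (1.02), and without the lateral prominence or dorsal control library 1 was called as well. Without lateral prominence it was Slc1a2, at the floor in the pit against 5.28 and 3.72, and without dorsal control it was Slc6a8 (1.39).

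Between regions of 1 tissue, single libraries could be set side by side without a test. Slc38a6 was at 8.05 in the lateral prominence neural library against 1.09 and 1.89 in the other two. Slc1a3 was at 14.9 in dorsal control and 8.74 for the library labelled medial nasal prominence, its highest levels, and at 1 in the E9.5 mandibular arch against 3.68 in the maxillary arch. Slc43a3 was at 12.9 in the E9.5 mandibular arch, its highest level, and at 4.05 in the neural library titled central against 1.14 and 1.

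Some carriers outside the calls and below a level of 5 are named here after their values were seen. Slc6a8, the creatine carrier, ranged from 1 in the E10.5 library titled central to 4.10 in the library labelled medial nasal prominence, with 3.84 in the olfactory pit. Slc5a3, the inositol carrier, was at 3.64 in the E8.5 caudal brain but at its floor in the floor plate. Slc7a1 was at 3.61, 2.70 and 2.35 in the 3 E9.5 facial libraries and at 1 in the E9.5 ectoderm. Slc36a4, of the proton-coupled amino acid carriers, was at the floor in all 4 libraries of E8.5 and peaked at 3.25 in dorsal control, and its stage difference in neural epithelium missed the call (adjusted p = 0.0327, deposited difference under 2-fold).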

How the data were processed

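The authors deposited 1 table per library with a ratio per gene, and the ratio was worked out from the values: each of the 15876 genes has a median of 1 over the 16 libraries. Per the submitters' processing notes, Bowtie, TopHat, TopHat2, Cufflinks and the build mm9 were used. Their versions were not given in the sources used here, nor was the annotation. Per the labels' protocols, RNA was read as 50-base single reads. No depth per library is given, so depth is unknown and no counting interval was computed. The tests had been planned for FPKM, and log2 ratios were used without a pseudocount (0.1 as an alternative).

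limma (version 3.58.1 under R 4.3.3), its prior variance following the mean, was fitted once on all 16 libraries in 8 groups, for 12851 genes above their floor in at least 3 libraries, and was tested on simulated data. Values at the floor entered as they stand. Where a whole group of a called carrier is at the floor, a lower bound is given in place of a fitted fold: the lowest library of the other group over that floor. Groups of 1 library are assumed to vary like the others. Carriers were named when they reached a level of 5 or were called. Other lists are given as counts with up to 4 called genes. The members and all lists, markers included, were chosen with earlier results of these data known. Alternatives were values as deposited, no filter, a pseudocount, the library labelled medial nasal prominence put with the facial group, each library left out, and, chosen after seeing the data, 2 removals of low libraries and the 2 arch regions as a block. Of 5 macrophage markers 2 were measured and of 4 visceral endoderm markers 0, and neither list was used. Sequences are from RefSeq (GRCm38.p6). A few genes are not reported here by name, though they remain in the counts.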

Additional observations from a re-analysis of the deposited data

How the results depend on the processing

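Under values as deposited, the carriers called went from 3 to 7 for E10.5 neural epithelium against facial tissue, from 8 to 14 for facial stage, from 2 to 1 for epithelium against facial mesenchyme and from 0 to 1 for olfactory pit against neural. With log2(ratio + 0.1), 5 were called for facial stage. For facial stage the count over all genes is not given here for that setting, nor for the removal of single libraries. Those carrier counts are therefore no result about carriers. With the library labelled medial nasal prominence in the facial group, 0, 2 and 1 were called for the first 3 comparisons. Without both E10.5 arches 0 were called in each of these 3. Without the lateral prominence and central neural libraries 1 was called for pit against neural, Slc3a2 (2.16). Leaving out 1 library at a time gave 2 to 3 for neural against facial tissue, 7 to 9 for neural stage (9 with all), 5 to 8 for facial stage, 2 for epithelium against mesenchyme and 0 to 1 for pit against neural. For neural stage all alternatives gave 7 to 9, but without lateral prominence and central the 8 called included Slc2a4, Slc36a4 and Slc6a8 and no longer Slc2a3, Slc16a1, Slc16a3 or Slc38a4. For E8.5 neural against mesoderm and for the interaction 0 were called under every alternative run. Genes called over the whole table, in the order neural against facial tissue, E8.5 neural against mesoderm, facial stage, epithelium against mesenchyme, pit against neural and interaction, were 593, 105, 1012, 412, 408 and 2. As deposited they were 1287, 217, 4128, 1109, 883 and 194, and with the library labelled medial nasal prominence in the facial group 14, 13, 368, 155, 76 and 0. Without both arches, 216 were called for neural against facial tissue and 208 for facial stage. Without lateral prominence and central, 49 were called for E8.5 neural against mesoderm, 232 for pit against neural and 9 for the interaction. Leaving out 1 library gave 381 (E10.5 mandibular arch), 391 (lateral nasal prominence) and 890 (E10.5 maxillary arch) for neural against facial tissue. It gave 220 (E9.5 maxillary arch), 226 (lateral prominence), 240 (E10.5 mandibular arch), 260 (central) and 657 (dorsal control) for pit against neural. For neural stage, 924 were called without the E8.5 non-floor plate, against 1391, and for the interaction 0 to 8. The interaction count was 5 with no filter and 0 with log2(ratio + 0.1). No called carrier changed sign in any alternative run. No filter on low values changed no count of called carriers. The cause of these moves was not tested. Depth per library is unknown, and differences below the floor cannot be seen.

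The labels give no replicate numbers that pair libraries, and the mandibular and maxillary arch are the regions present at both stages. With these 2 regions as a block, chosen after seeing the data, 8 carriers were called for facial stage, 3 for neural against facial tissue, 7 for neural stage (without Slc3a2 and Slc1a2), 2 for epithelium against mesenchyme and 0 for the other comparisons. The genes called were 973, 515, 1271 and 354, with 200 for pit against neural and 0 for the interaction.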
